A study of Mus musculus with 16 samples.

Results

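The comparison described here sets tumours treated with mitotane and 9-cis retinoic acid together (combined, 4 arrays) against tumours treated with 9-cis retinoic acid alone (9-cisRA, 4 arrays). Both groups received the retinoid, so the difference between them is the addition of mitotane. These 8 of the study's 16 arrays were chosen by their treatment label, and neither the corn oil controls nor the tumours given mitotane alone entered the test. The tumours were H295R xenografts, that is, a single human adrenocortical carcinoma cell line grown in immunodeficient SCID mice, whose T and B cells do not function while their other host cells remain. The mice were dosed by mouth for 28 days, at doses not given in the sources used here. Since the labels do not tie each array to its own animal, the p-values reflect only how far these samples spread, and part of that spread may be technical.

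Mitotane is an adrenolytic drug used against adrenocortical carcinoma. It is concentrated in steroid-producing cells, where it is known to damage mitochondria, to inhibit the cholesterol-esterifying enzyme SOAT1 and to trigger stress of the endoplasmic reticulum, and it induces drug-metabolising enzymes in the liver. 9-cis retinoic acid binds the nuclear receptors RAR and RXR, and RXR is also the partner of the liver X and xenobiotic receptors. Steroid hormones are made from cholesterol in the mitochondria and endoplasmic reticulum of adrenocortical cells, by enzymes most of which H295R cells keep.

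Expression was read with 1-colour Agilent arrays, and the log2 values of the deposited series table were used. Each value is relative to the probe's own median over all 16 arrays, so a value can be compared between arrays but not between genes. Of 29094 identifiers, 19537 transcripts (67.2%) were tested. The files give accessions without gene symbols, and no table at hand pairs human accessions with symbols. Gene names below were therefore assigned from knowledge of the human RefSeq accessions, and the accession stands beside each gene where it is first named. The number of arrays limits the precision. Combined replicate 4 stood apart: 58.0% of its probes were well above background, against 69.5% to 75.9% on the other 6 arrays with scanner output, and it lay at 58.3 on the first principal component, on which combined replicate 3 lay at 24.5 and the other 6 arrays between -23.2 and -0.24. Combined replicate 3 has only its column in the series table. Every slide carried 1 array of each group, and the 9-cisRA array was always at position 4, so array position and treatment cannot be told apart.

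No single transcript passed an adjusted p of 0.05 (limma with Benjamini-Hochberg adjustment, 0 of 19537, or 0%), and the smallest adjusted p was 0.077. That value belonged to a transcript above background on 1 of 3 scanned combined arrays. At an unadjusted p under 0.05 there were 3447 transcripts (17.6%), where 976.85 would be expected if none differed. Of these 2110 were higher (10.8%) and 1337 lower (6.84%) in the combined tumours, so that 61.2% were higher. That split rests on scaling: with every array centred on its own median the counts were 1721 higher and 1626 lower, and after quantile normalisation 1665 higher and 1727 lower. The groups did not overlap, meaning that all 4 arrays of one lay beyond all 4 of the other, for 2171 transcripts (11.1%), of which 1251 were higher (6.4%) and 920 lower (4.71%). One other fit made many calls: with limma's array weights, which gave combined replicate 1 a weight of 4.81 and combined replicate 4 one of 0.326, 274 transcripts passed as higher and 145 as lower. The median log2 difference over all transcripts was 0.043. Every difference below is the combined mean minus the 9-cisRA mean, and none of those given passed the adjusted test of the unweighted fit.

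**Figure D1:**
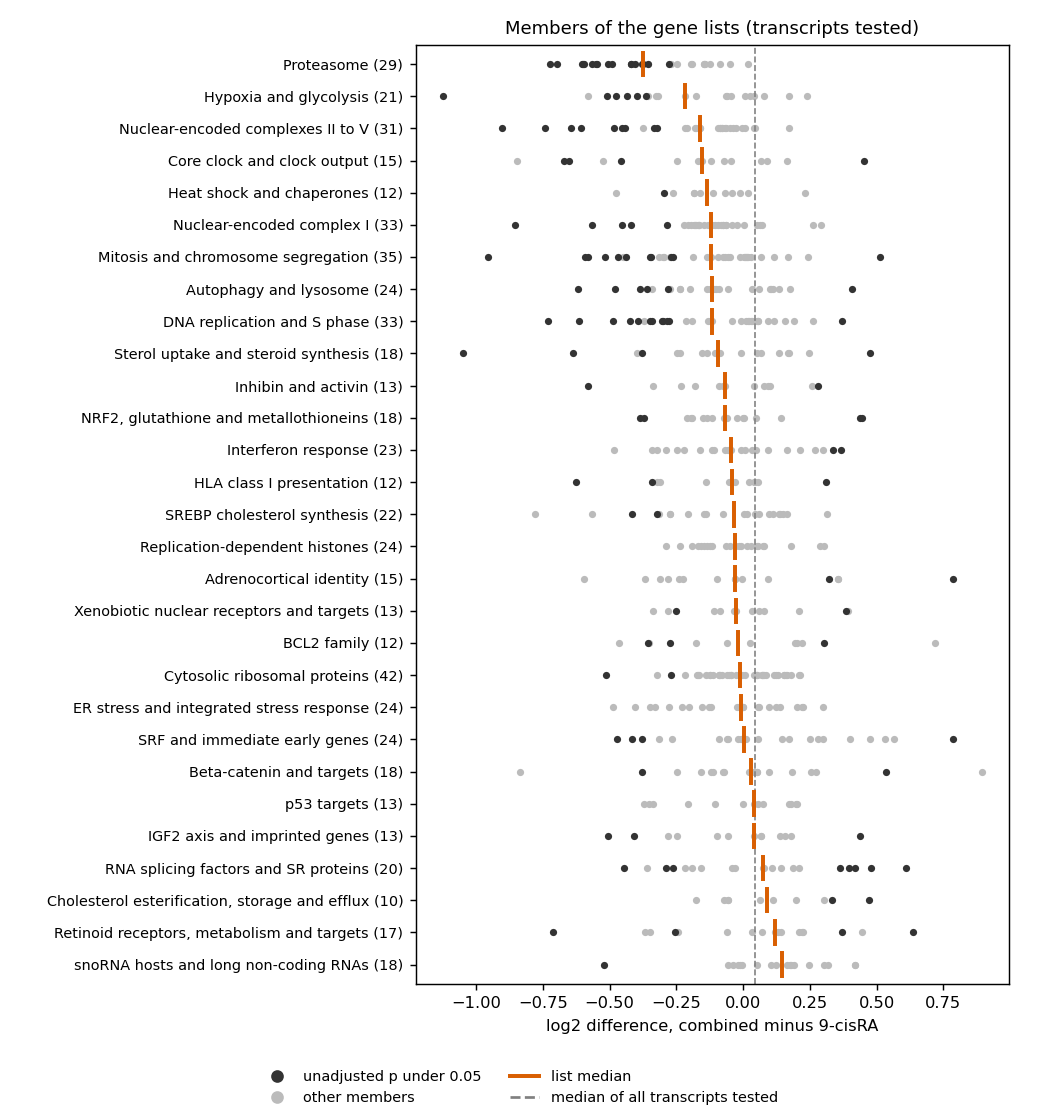
Log2 difference of each tested member of the gene lists with 10 or more members, combined minus 9-cisRA (n = 4 arrays each); dark points had an unadjusted p under 0.05, orange bars are list medians and the dashed line is the median of all transcripts tested, 0.043. The proteasome has the lowest list median, -0.37, and the small nucleolar RNA host genes and long non-coding RNAs the highest, 0.14.

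The proteasome, the protease that degrades ubiquitin-tagged proteins, had the lowest median of the 29 lists with 10 or more tested members besides cell markers. It is built from a barrel-shaped 20S core and a 19S cap that unfolds the substrate. Of 30 subunits listed, 29 were tested, and 28 of them were lower in the combined tumours, with a median of -0.37 against 0.043 for all transcripts. An unadjusted p under 0.05 was reached by 17 of the 29 (58.6%, against 6.84% of all transcripts), all of them lower. The groups did not overlap for 14, again all lower (48.3%, against 4.71%). PSMA5 (NM_002790), a subunit of the core's outer ring, read -0.46, -0.22, -0.48 and -0.64 on combined replicates 1 to 4 and 0.053, 0.43, 0.41 and 0.20 on 9-cisRA replicates 1 to 4. All 4 combined arrays lay below all 4 9-cisRA arrays. The difference was -0.72 ± 0.13 (SE), or 1.65-fold lower (95% interval -1.02 to -0.42, adjusted p 0.180).

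The lower values were found in every part of the particle. In the alpha ring, which gates the core, the median of 6 subunits was -0.48. PSMA2 (NM_002787) and PSMA4 (NM_002789) had differences of -0.55 ± 0.11 (SE) and -0.55 ± 0.13 (SE). In the beta ring, which holds the proteolytic sites, the median of 7 subunits was -0.27. PSMB5 (NM_002797), the chymotrypsin-like subunit that bortezomib binds, read -0.47, -0.34, -0.42 and -0.85 on combined replicates 1 to 4 and 0.012, 0.49, 0.18 and 0.032 on 9-cisRA replicates 1 to 4. Its groups did not overlap, and its difference was -0.70 ± 0.15 (SE), or 1.62-fold lower (95% interval -1.04 to -0.35). PSMB2 (NM_002794), a non-catalytic subunit, differed by -0.60 ± 0.13 (SE), or by -0.35 on the brightest of its probes. By contrast, PSMB4 (NM_002796) read -0.14, -0.059, 0.051 and 0.18 on combined replicates 1 to 4 and 0.051, 0.33, -0.15 and -0.0089 on 9-cisRA replicates 1 to 4, with overlapping groups and a difference of -0.048 ± 0.13 (SE).

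In the 19S cap, the 6 ATPases that unfold substrates had a median of -0.45. Of the 6, 5 were lower at an unadjusted p under 0.05, against 6.84% of all transcripts. These 5 are among the 17 counted above. PSMC3 (NM_002804) read -0.69, -0.44, -0.23 and -0.39 on combined replicates 1 to 4 and 0.14, 0.36, 0.12 and 0.038 on 9-cisRA replicates 1 to 4, a difference of -0.60 ± 0.13 (SE) with no overlap. PSMC4 (NM_006503) differed by -0.60 ± 0.14 (SE) and PSMC2 (NM_002803) by -0.49 ± 0.12 (SE). The 10 tested subunits without ATPase activity had a median of -0.32. PSMD11 (NM_002815) differed by -0.57 ± 0.21 (SE), and its lowest array by far was combined replicate 4, at -1.10. The ubiquitin receptor PSMD4 (NM_002810) was the only subunit that was not lower, at 0.017 ± 0.15 (SE).

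**Figure D2:**
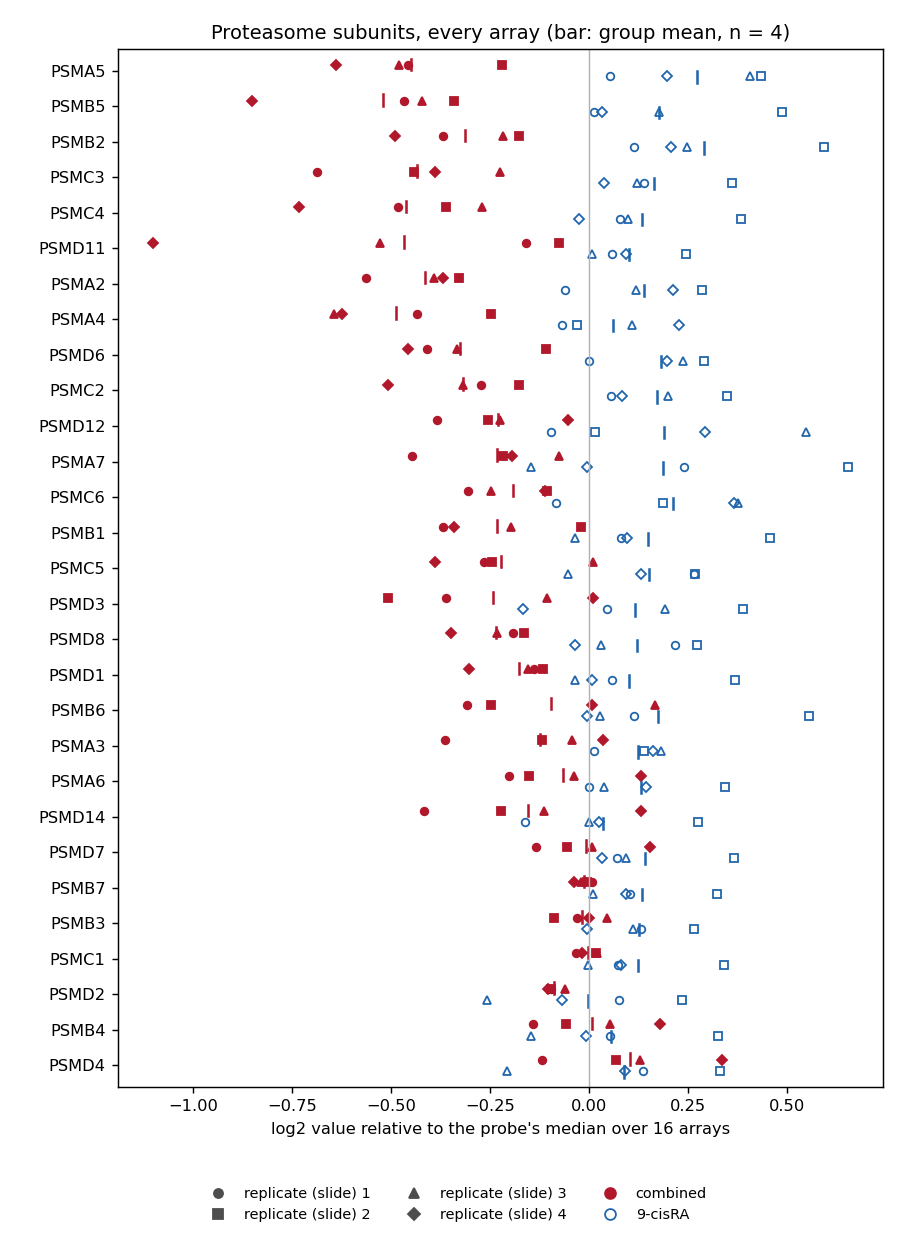
Log2 value, relative to the probe's median over 16 arrays, of the 29 tested proteasome subunits on the 4 combined (filled) and 4 9-cisRA (open) arrays, ordered by difference; bars are group means and symbols mark the replicate, which is also the slide. The groups are separate for 14 subunits, and 9-cisRA replicate 2 (open square) is the highest array for many of them.

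Averaged over the 29 subunits, the arrays read -0.30, -0.18, -0.17 and -0.25 on combined replicates 1 to 4 and 0.058, 0.33, 0.083 and 0.085 on 9-cisRA replicates 1 to 4. The 9-cisRA replicate 2 array stood above its group, while every combined array lay below every 9-cisRA array. The means of the lists for complexes II to V, DNA replication, mitosis and clock genes were separate in the same direction. Within the 4 slides the proteasome difference was -0.36, -0.50, -0.25 and -0.33. All 29 subunits were lower in the combined tumour on slides 1 and 2, and 22 of 29 on slides 3 and 4. Without 9-cisRA replicate 2 the median was -0.28, with 13 of 29 lower at an unadjusted p under 0.05 (44.8%, against 5.83% of all transcripts), and without combined replicate 4 it was -0.34, with 16 (55.2%, against 4.94%). Over the 20 alternative settings run, scalings included, the median lay between -0.46 and -0.28, against -0.32 to -0.13 for the hypoxia and glycolysis list and -0.23 to -0.080 for complexes II to V of the respiratory chain. The 4 tumours given mitotane alone, measured in the same table, had list means of 0.034, 0.099, -0.18 and -0.078. Of the 29 subunits, 28 belonged to the brightest quartile of transcripts by scanner signal, whose own median was 0.026. The immunoproteasome subunit PSMB9 (NM_002800), listed under antigen presentation, differed by -0.62 ± 0.18 (SE).

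Enzymes of glycolysis break glucose down to pyruvate and lactate. Of 21 transcripts tested on the hypoxia and glycolysis list, 15 were lower in the combined tumours, and the median was -0.22. An unadjusted p under 0.05 was reached by 6 (28.6%, against 6.84% of all transcripts), all lower. The 6 members above 0 reached at most 0.24. All list members named below are among the lower ones. LDHA (NM_005566), which turns pyruvate into lactate, read -0.51, -0.45, -0.95 and -1.82 on combined replicates 1 to 4 and 0.061, 0.11, 0.18 and 0.42 on 9-cisRA replicates 1 to 4. Every combined array was below every 9-cisRA array, and the spread within the combined group was wide. The difference was -1.12 ± 0.28 (SE), or 2.18-fold lower (95% interval -1.75 to -0.50), and -0.83 without combined replicate 4.

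ENO1 (NM_001428), enolase, read -0.42, -0.44, -0.093 and -0.29 on combined replicates 1 to 4 and 0.16, 0.32, 0.11 and 0.21 on 9-cisRA replicates 1 to 4. Its groups did not overlap and differed by -0.51 ± 0.11 (SE). PGAM1 (NM_002629), phosphoglycerate mutase, differed by -0.43 ± 0.11 (SE) (-0.25 on its brightest probe) and PGK1 (NM_000291), phosphoglycerate kinase, by -0.36 ± 0.12 (SE), both without overlap. GAPDH (NM_002046), often used as a reference transcript, read -0.27, -0.27, -0.081 and -0.23 on combined replicates 1 to 4 and 0.088, 0.48, 0.12 and 0.054 on 9-cisRA replicates 1 to 4, a difference of -0.40 ± 0.12 (SE), with 9-cisRA replicate 2 far above the others. ALDOC (NM_005165), an aldolase, differed by -0.48 ± 0.18 (SE). The list median was -0.13 without 9-cisRA replicate 4 and -0.13 without 9-cisRA replicate 2, both nearer to 0. PGD (NM_002631), of the pentose phosphate pathway and named after its value was seen, read -0.49, -0.33, -0.58 and -0.91 on combined replicates 1 to 4 and 0.27, 0.30, 0.11 and 0.18 on 9-cisRA replicates 1 to 4, a difference of -0.79 ± 0.14 (SE) without overlap.

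The respiratory chain and ATP synthase make most of the cell's ATP in the inner mitochondrial membrane. Of 31 tested nuclear-encoded transcripts of complexes II to V, 9 were lower at an unadjusted p under 0.05 (29%, against 6.84%) and 0 were higher, with a median of -0.16. ATP5F1B (NM_001686), the catalytic beta subunit of ATP synthase, read -0.50, -0.19, -0.76 and -1.30 on combined replicates 1 to 4 and 0.15, 0.51, 0.095 and 0.10 on 9-cisRA replicates 1 to 4. The groups were separate, with combined replicate 4 lowest and 9-cisRA replicate 2 highest, and the difference was -0.90 ± 0.22 (SE), or 1.87-fold lower (95% interval -1.41 to -0.40). The ATP synthase subunits ATP5F1C (NM_005174) and ATP5MC1 (NM_005175) differed by -0.74 ± 0.18 (SE) and -0.61 ± 0.15 (SE). SDHB (NM_003000), the iron-sulphur subunit of succinate dehydrogenase, read -0.56, -0.22, -0.42 and -0.75 on combined replicates 1 to 4 and 0.077, 0.28, 0.18 and 0.089 on 9-cisRA replicates 1 to 4, a difference of -0.64 ± 0.13 (SE) without overlap. CYC1 (NM_001916) of complex III and COX4I1 (NM_001861) of complex IV differed by -0.45 ± 0.11 (SE) and -0.49 ± 0.14 (SE), also without overlap.

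For complex I, which oxidises NADH, 5 of 33 tested transcripts were lower at an unadjusted p under 0.05 (15.2%, against 6.84% of all transcripts) and 0 were higher (against 10.8%), with a median of -0.12. The count was 3 without combined replicate 3 and 3 without 9-cisRA replicate 2 (9.09% each, against 5.46% and 5.83% of all transcripts). The core subunit NDUFV2 (NM_021074) read -0.38, -0.12, -0.42 and -0.56 on combined replicates 1 to 4 and 0.034, 0.39, 0.18 and 0.17 on 9-cisRA replicates 1 to 4. No combined array overlapped the 9-cisRA arrays, and the difference was -0.57 ± 0.13 (SE). NDUFAB1 (NM_005003), the mitochondrial acyl carrier protein, differed by -0.42 ± 0.11 (SE). The list mean did not keep one direction: within slides it differed by -0.18, -0.39, -0.036 and 0.043, so that slide 4 ran the other way. Without 9-cisRA replicate 2 the median was -0.059 for complex I and -0.080 for complexes II to V, each moved by more than 1.5 times.

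**Figure D3:**
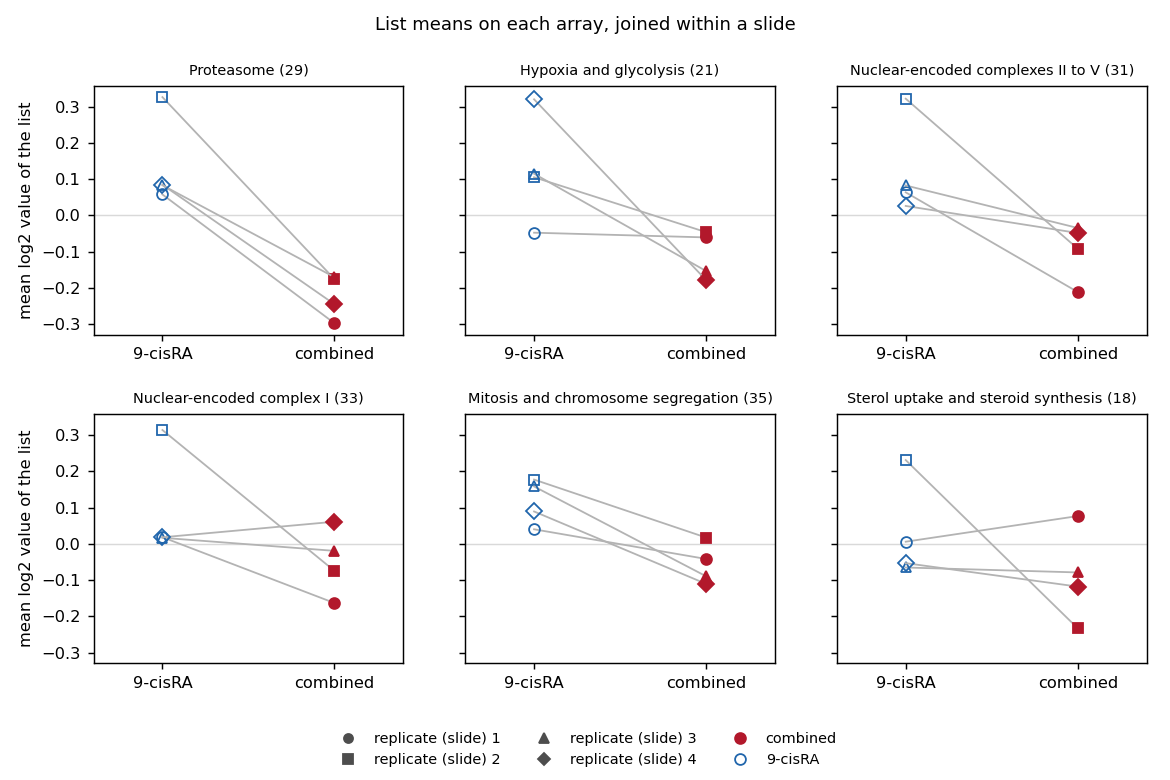
Mean log2 value of 6 lists (members tested in parentheses) on each array; lines join the 9-cisRA and combined arrays of one slide. The lines of the proteasome, hypoxia and glycolysis, complexes II to V and mitosis slope down on all 4 slides. The proteasome differences run from -0.50 to -0.25 and those of hypoxia and glycolysis from -0.50 to -0.013. Complex I and steroid synthesis do not have one direction on all slides.

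Other mitochondrial and metabolic transcripts with small p-values, named after their values were seen, are given as a description. PRDX3 (NM_006793), the mitochondrial peroxide-removing peroxiredoxin, read -0.41, 0.0014, -0.82 and -1.50 on combined replicates 1 to 4 and 0.31, 0.57, 0.63 and 0.24 on 9-cisRA replicates 1 to 4, a difference of -1.12 ± 0.28 (SE). FH (NM_000143), fumarase of the citric acid cycle, read -0.41, -0.14, -0.48 and -0.94 on combined replicates 1 to 4 and 0.19, 0.53, 0.31 and -0.0095 on 9-cisRA replicates 1 to 4, a difference of -0.75 ± 0.18 (SE). In both, the combined arrays were all lower than the 9-cisRA arrays. The outer membrane channel VDAC3 (NM_005662) differed by -1.08 ± 0.32 (SE). PCCB (NM_000532), which handles propionyl-CoA, and DECR1 (NM_001359), of unsaturated fatty acid oxidation, differed by -0.93 ± 0.19 (SE) and -0.87 ± 0.18 (SE). STOML2 (NM_013442), a scaffold of the inner membrane, differed by -0.74 ± 0.13 (SE). All of them are encoded in the nucleus.

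Of the cell cycle lists, the 33 transcripts tested for DNA replication and S phase included 11 that were lower at an unadjusted p under 0.05 (33.3%, against 6.84%) and 1 that was higher (3.03%, against 10.8%), with a median of -0.12. With the slide as a block 5 were lower (15.2%, against 5.94%) and 0 were higher. PCNA (NM_002592), the sliding clamp of DNA polymerase, read -0.43, -0.20, -0.24 and -0.30 on combined replicates 1 to 4 and -0.00079, 0.35, 0.23 and 0.19 on 9-cisRA replicates 1 to 4. The groups were separate and differed by -0.49 ± 0.11 (SE). RRM2 (NM_001034), a subunit of ribonucleotide reductase, read -0.14, -0.27, -0.33 and -0.88 on combined replicates 1 to 4 and 0.095, 0.36, 0.13 and 0.27 on 9-cisRA replicates 1 to 4, a difference of -0.62 ± 0.17 (SE). FEN1 (NM_004111) and MCM7 (NM_005916), a flap nuclease and a helicase subunit, differed by -0.42 ± 0.15 (SE) and -0.28 ± 0.11 (SE). The higher member was POLD1 (NM_002691), the catalytic subunit of DNA polymerase delta, at 0.37 ± 0.15 (SE). With one array left out, between 5 and 10 of the 33 were lower at that threshold. The 5 (15.2%) occurred without combined replicate 3, combined replicate 4 or 9-cisRA replicate 4, against 5.46%, 4.94% and 4.99% of all transcripts. On the scanner signal, which lacks combined replicate 3, 4 were lower (12.1%, against 4.37%).

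Of 35 transcripts tested for mitosis, 10 were lower at an unadjusted p under 0.05 (28.6%, against 6.84% of all transcripts) and 1 was higher (2.86%, against 10.8%), with a median of -0.12. With one array left out, 5 to 12 were lower. The 5 (14.3%) occurred without combined replicate 3 or 9-cisRA replicate 3, against 5.46% and 4.91% of all transcripts. On the scanner signal 4 were lower (11.4%, against 4.37%). Within slides the list mean differed by -0.082, -0.16, -0.25 and -0.20. MAD2L1 (NM_002358), of the spindle checkpoint, read -0.31, -0.18, -0.14 and -0.32 on combined replicates 1 to 4 and 0.12, 0.40, 0.51 and 0.090 on 9-cisRA replicates 1 to 4, a difference of -0.52 ± 0.13 (SE) without overlap. AURKB (NM_004217), aurora kinase B, and CDK1 (NM_001786), the mitotic kinase, differed by -0.34 ± 0.099 (SE) and -0.27 ± 0.11 (SE). TOP2A (NM_001067), topoisomerase II alpha, had the lowest difference of the list, -0.96 ± 0.37 (SE), with overlapping groups. The helicase PIF1 (NM_025049) was the exception, reading 0.42, 0.60, 0.57 and 0.83 on combined replicates 1 to 4 and 0.34, 0.091, -0.086 and 0.017 on 9-cisRA replicates 1 to 4, or 1.43-fold higher at 0.51 ± 0.13 (SE). The replication-dependent histones, made in S phase, had 0 of 24 at an unadjusted p under 0.05 and a median of -0.031.

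Steroid synthesis is the function that mitotane is given to suppress. Of 18 transcripts tested, 3 were lower (16.7%, against 6.84%) and 1 was higher (5.56%, against 10.8%) at an unadjusted p under 0.05, with a median of -0.095. The lower count was 1 without combined replicate 3 (5.56%, against 5.46% of all transcripts). It was also 1 with array weights (against 10.1%) and in both fits of the scanner signal (against 4.37% and 7.05%). HSD3B2 (NM_000198), the adrenal 3-beta-hydroxysteroid dehydrogenase, read -0.097, -1.52, -0.29 and -1.15 on combined replicates 1 to 4 and 0.32, 0.51, 0.12 and 0.19 on 9-cisRA replicates 1 to 4. The groups did not overlap, but combined replicates 2 and 4 were far below combined replicates 1 and 3. The difference was -1.05 ± 0.30 (SE), or 2.07-fold lower (95% interval -1.71 to -0.38). It was -0.61 after normexp background correction and quantile normalisation of the scanner signal, for which combined replicate 3 has no file here. Below, normexp stands for these steps together, fitted on the 7 scanned arrays, so their parts cannot be told apart. SULT2A1 (NM_003167), which sulphates DHEA, read 0.053, -0.45, -0.76 and -1.03 on combined replicates 1 to 4 and 0.12, 0.35, 0.12 and -0.22 on 9-cisRA replicates 1 to 4, with overlap and a difference of -0.64 ± 0.23 (SE), which was -0.16 with array weights. AKR1C3 (NM_003739) differed by -0.38 ± 0.14 (SE). HSD17B1 (NM_000413), an oestradiol-forming dehydrogenase, read 0.25, 0.49, 0.27 and 0.51 on combined replicates 1 to 4 and 0.016, -0.016, -0.27 and -0.11 on 9-cisRA replicates 1 to 4, or 1.39-fold higher at 0.48 ± 0.12 (SE) without overlap.

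The steps that commit cholesterol to steroids showed no difference beyond their spread. STAR (NM_000349), which carries cholesterol into the mitochondrion, read 0.13, -0.28, 0.0053 and 0.13 on combined replicates 1 to 4 and -0.21, 0.34, -0.0053 and -0.11 on 9-cisRA replicates 1 to 4. The arrays of both groups were interleaved, and the difference was -0.0093 ± 0.15 (SE) (95% interval -0.35 to 0.33). CYP11A1 (NM_000781), the side-chain cleavage enzyme, differed by -0.24 ± 0.17 (SE) (95% interval -0.61 to 0.14) and CYP17A1 (NM_000102), of the cortisol and androgen branches, by -0.25 ± 0.17 (SE) (95% interval -0.64 to 0.14). These intervals do not show that the genes were alike in both groups. With array weights the differences were -0.085 for CYP11A1 and -0.046 for CYP17A1. CYP11A1 was -0.13 without 9-cisRA replicate 2, and CYP17A1 was -0.13 without 9-cisRA replicate 3 and -0.38 without 9-cisRA replicate 4. Within slides the list mean differed by 0.071, -0.46, -0.014 and -0.065. Without 9-cisRA replicate 2 the list median was 0.0077.

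**Figure D4:**
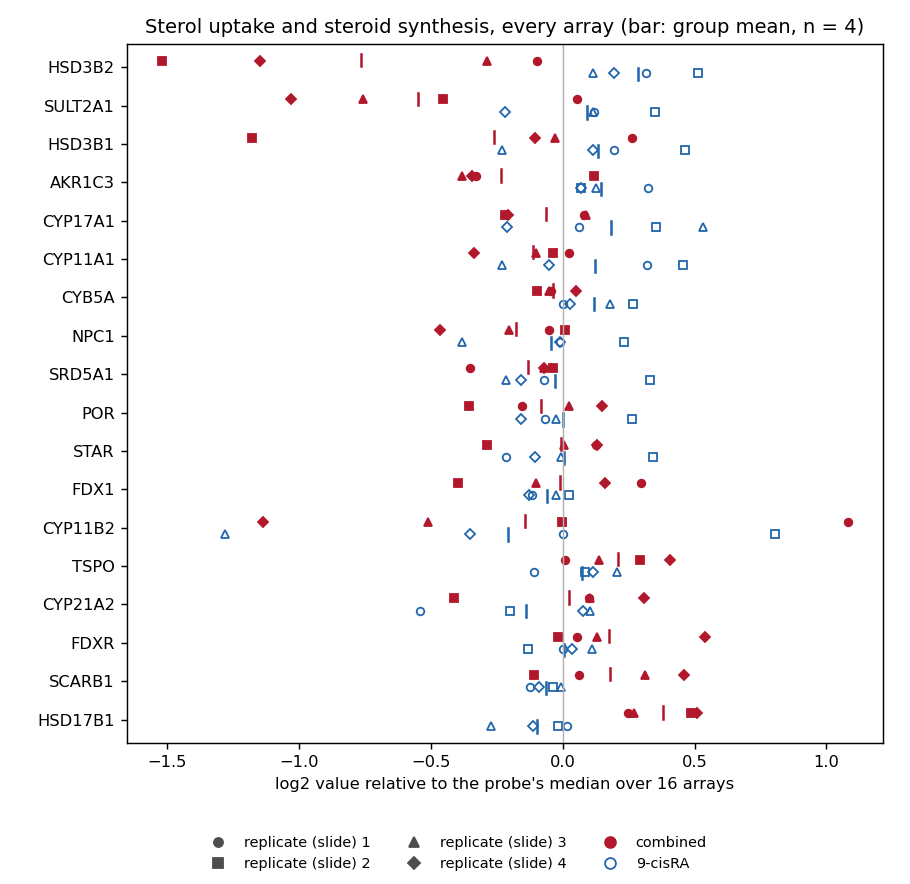
Log2 value, relative to the probe's median over 16 arrays, of the 18 tested transcripts of sterol uptake and steroid synthesis on the 4 combined (filled) and 4 9-cisRA (open) arrays, ordered by difference; bars are group means. HSD3B2 (lower) and HSD17B1 (higher) are the transcripts whose groups do not overlap.

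Among transcripts of adrenocortical identity, 0 of 15 tested were lower and 2 were higher (13.3%, close to the 10.8% of all transcripts) at an unadjusted p under 0.05, with a median of -0.031. With one array left out, 1 to 3 were higher and 0 to 2 lower. NR5A1 (NM_004959), the steroidogenic factor SF-1, differed by -0.23 ± 0.15 (SE). MC2R (NM_000529), the ACTH receptor, read 0.18, -1.24, -0.10 and -1.52 on combined replicates 1 to 4 and 0.33, 0.39, -0.62 and -0.40 on 9-cisRA replicates 1 to 4, with broad overlap and a difference of -0.60 ± 0.40 (SE). The probe of MC2R was above background on 2 of 3 scanned combined arrays, and its difference was -0.31 without combined replicate 4, -0.13 after normexp and -0.052 with array weights. NR4A1 (NM_002135), an orphan receptor that responds rapidly to ACTH, read -0.020, -0.31, 0.34 and 0.94 on combined replicates 1 to 4 and -0.47, -0.36, -0.74 and -0.62 on 9-cisRA replicates 1 to 4. Its groups did not overlap and differed by 0.78 ± 0.24 (SE), or 1.72-fold higher (0.45 after normexp). All 10 adrenocortical marker genes were tested, which is the check of the labelled tissue, and their median difference was -0.23. Their mean ranged from -0.55 to 0.046 on combined and -0.030 to 0.20 on 9-cisRA arrays, with overlap. Within slides it differed by 0.076, -0.75, -0.11 and -0.17. Of the 10, 1 was lower (10%, against 6.84% of all transcripts) and 0 were higher at an unadjusted p under 0.05.

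Cholesterol handling and the stress responses linked to mitotane had few members at an unadjusted p under 0.05. SOAT1 (NM_003101), the enzyme that esterifies cholesterol, read -0.11, -0.073, -0.14 and 0.040 on combined replicates 1 to 4 and -0.20, 0.065, 0.080 and 0.059 on 9-cisRA replicates 1 to 4, an overlapping pair of groups that differed by -0.071 ± 0.11 (SE) (95% interval -0.31 to 0.17). PLIN2 (NM_001122), the coat protein of lipid droplets, read 0.33, 0.15, 0.37 and 0.23 on combined replicates 1 to 4 and -0.19, -0.16, -0.26 and -0.19 on 9-cisRA replicates 1 to 4. All 4 combined arrays were above all 4 9-cisRA arrays, and the difference was 0.47 ± 0.097 (SE), or 1.39-fold higher, although its probe was above background on 2 of 3 scanned combined arrays and the difference was 0.091 after normexp. NR1H3 (NM_005693), the liver X receptor alpha, differed by 0.33 ± 0.12 (SE) without overlap. Of 10 transcripts of esterification, storage and efflux, these 2 were higher at an unadjusted p under 0.05 (20%, against 10.8%) and 0 were lower. Without combined replicate 4, 1 was higher (10%, against 8.88%). The mean of these 10 ranged from 0.060 to 0.15 on combined and -0.062 to 0.024 on 9-cisRA arrays, without overlap. Within slides it differed by 0.046, 0.046, 0.17 and 0.18.

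Of 22 SREBP-driven transcripts of sterol and fatty acid synthesis, 0 were higher and 2 were lower at an unadjusted p under 0.05 (9.09%, against 6.84% of all transcripts; 0 to 4 with one array left out), namely ACLY (NM_001096) at -0.42 ± 0.18 (SE) and FDFT1 (NM_004462) at -0.32 ± 0.12 (SE). HMGCS1 (NM_002130) read 0.19, 0.074, -0.83 and -0.88 on combined replicates 1 to 4 and -0.16, -0.25, 0.69 and 0.53 on 9-cisRA replicates 1 to 4, so that slides 3 and 4 showed lower values in the combined tumour and slides 1 and 2 did not. For endoplasmic reticulum stress and the integrated stress response, 0 of 24 reached that threshold in either direction, with a median of -0.010. All transcripts had 10.8% higher and 6.84% lower. Without 9-cisRA replicate 1, 3 were lower (12.5%, against 7.17%) and 1 was higher (4.17%, against 13.3%). With array weights 3 were lower (12.5%, against 10.1%) and 1 was higher (4.17%, against 16.7%), with a median of -0.14. Within slides the list mean differed by -0.016, -0.058, -0.14 and -0.0097, with overlapping groups. HSPA5 (NM_005347), the lumenal chaperone BiP, differed by 0.14 ± 0.14 (SE), DDIT3 (NM_004083), the stress factor CHOP, by -0.23 ± 0.15 (SE) and ATF4 (NM_001675) by 0.12 ± 0.11 (SE).

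Retinoid and xenobiotic genes were examined because both agents act on nuclear receptors. Of 17 retinoid transcripts tested, 2 were higher (11.8%, against 10.8% of all transcripts) and 2 lower (11.8%, against 6.84%) at an unadjusted p under 0.05, so the higher share was at that of all transcripts. With one array left out, 1 to 2 were higher and 1 to 2 lower. HOXD3 (NM_006898), a homeobox factor of a retinoid-responsive cluster, read 0.35, 0.57, 0.41 and 0.82 on combined replicates 1 to 4 and -0.13, 0.010, -0.15 and -0.12 on 9-cisRA replicates 1 to 4. The groups were separate, and the combined tumours were 1.55-fold higher at 0.64 ± 0.13 (SE) (95% interval 0.35 to 0.92). ALDH1A1 (NM_000689), which makes retinoic acid from retinal, read -0.32, -0.11, -0.42 and -0.90 on combined replicates 1 to 4 and 0.074, 0.086, 0.61 and 0.33 on 9-cisRA replicates 1 to 4, or 1.64-fold lower at -0.71 ± 0.19 (SE). CYP26B1 (NM_019885), which degrades retinoic acid, differed by 0.37 ± 0.14 (SE) and RARB (NM_000965), a receptor induced by retinoids, by 0.072 ± 0.20 (SE). Of 13 transcripts of the xenobiotic receptors and their targets, 1 was higher (7.69%, against 10.8%) and 1 lower (7.69%, against 6.84%), and CYP2B6 (NM_000767), a target of the receptors CAR and PXR, differed by 0.38 ± 0.13 (SE) without overlap (0.18 after normexp). Of 18 transcripts of the NRF2, glutathione and metallothionein list, 2 were higher (11.1%, against 10.8%) and 2 lower (11.1%, against 6.84%). GCLM (NM_002061) of glutathione synthesis was 1.36-fold higher at 0.44 ± 0.13 (SE), whereas NQO1 (NM_000903), another NRF2 target, was 1.29-fold lower at -0.37 ± 0.12 (SE) (-0.17 after normexp).

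Clock genes showed members in both directions. Of 15 tested, 3 were lower (20%, against 6.84% of all transcripts) and 1 was higher (6.67%, against 10.8%) at an unadjusted p under 0.05, with a median of -0.15. With one array left out, 2 to 5 were lower, the 5 without 9-cisRA replicate 2 (33.3%, against 5.83% of all transcripts). The 2 (13.3%) occurred without combined replicate 3, 9-cisRA replicate 3 or 9-cisRA replicate 4, against 5.46%, 4.91% and 4.99%. The clock output factors HLF (NM_002126) and DBP (NM_001352) are PAR-bZIP transcription factors. HLF read -0.061, -0.21, -0.53 and -0.36 on combined replicates 1 to 4 and 0.70, 0.036, 0.36 and 0.42 on 9-cisRA replicates 1 to 4, a difference of -0.67 ± 0.16 (SE) without overlap, and DBP differed by -0.46 ± 0.14 (SE). NPAS2 (NM_002518), the partner of BMAL1, read 0.40, 0.33, 0.49 and 0.54 on combined replicates 1 to 4 and -0.029, -0.012, 0.071 and -0.082 on 9-cisRA replicates 1 to 4. Its arrays were tightly grouped and separate, with the combined tumours 1.37-fold higher at 0.45 ± 0.098 (SE). After normexp the differences were -0.34 for HLF and 0.25 for NPAS2. The labels used here do not give the hour of sampling, and its part in these values was not tested.

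Autophagy and lysosomal genes, the other main route of protein degradation, had a median of -0.12 over 24 tested, with 5 lower (20.8%, against 6.84% of all transcripts) and 1 higher (4.17%, against 10.8%) at an unadjusted p under 0.05. On the scanner signal 2 were lower (8.33%, against 4.37% of all transcripts). GABARAP (NM_007278), of the autophagosome membrane, differed by -0.62 ± 0.19 (SE) and the lysosomal protease CTSL (NM_001912) by -0.39 ± 0.12 (SE). ULK1 (NM_003565), the kinase that starts autophagy, was the higher one at 0.41 ± 0.14 (SE). Cytosolic ribosomal proteins had 2 of 42 lower (4.76%, against 6.84%) and 0 higher, with a median of -0.011, near that of all transcripts. Splicing factors had 5 higher (25%, against 10.8%) and 3 lower (15%, against 6.84%) of 20. Without combined replicate 4 these were 3 (15%, against 8.88%) and 0 (against 4.94%). The lower count was 1 (5%) without combined replicate 3, 9-cisRA replicate 3 or 9-cisRA replicate 4, against 5.46%, 4.91% and 4.99% of all transcripts. SRRM2 (NM_016333), a scaffold of the spliceosome, read 0.31, 0.38, 0.27 and 0.35 on combined replicates 1 to 4 and 0.23, -0.53, -0.50 and -0.32 on 9-cisRA replicates 1 to 4, or 1.52-fold higher at 0.61 ± 0.17 (SE). RBM5 (NM_005778) differed by 0.42 ± 0.11 (SE) and HNRNPC (NM_031314) by -0.29 ± 0.10 (SE).

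Transcripts other than RefSeq mRNAs had a higher median difference. The 14998 RefSeq mRNAs had a median difference of 0.0089, with 1262 higher and 1191 lower at an unadjusted p under 0.05. The 4539 other identifiers had a median of 0.17, with 848 higher and 146 lower. The 985 RefSeq non-coding RNAs among them had a median of 0.17, with 206 higher and 23 lower. Over all 19537 transcripts, 2110 were higher (10.8%) and 1337 lower (6.84%) at that threshold. Without overlap of the groups, 5.25% of the mRNAs were higher and 5.45% lower, and 10.2% and 2.27% of the other identifiers. For the non-coding RNAs these shares were 11.8% and 1.62%, against 6.4% and 4.71% of all transcripts. The difference between the kinds was present in each quartile of the scanner signal, with medians of 0.15 to 0.19 for the other identifiers and -0.015 to 0.054 for the mRNAs, and with combined replicate 4 left out. The kinds share their arrays, and the difference between them was not tested. At an unadjusted p under 0.05, 0 of 18 small nucleolar RNA host genes and abundant long non-coding RNAs were higher (against 10.8% of all transcripts). The higher count was 2 with the slide as a block (11.1%, against 10.5%) and 4 with array weights (22.2%, against 16.7%). Their mean ranged from 0.0070 to 0.081 on combined and -0.14 to -0.0028 on 9-cisRA arrays, without overlap. Within slides it differed by 0.096, 0.12, 0.19 and 0.046. Of these 18, 1 was lower (5.56%, against 6.84%), and the median was 0.14. The lower one was DANCR (NR_024031), a host of small nucleolar RNAs, at -0.52 ± 0.17 (SE), or -0.33 with array weights.

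**Figure D5:**
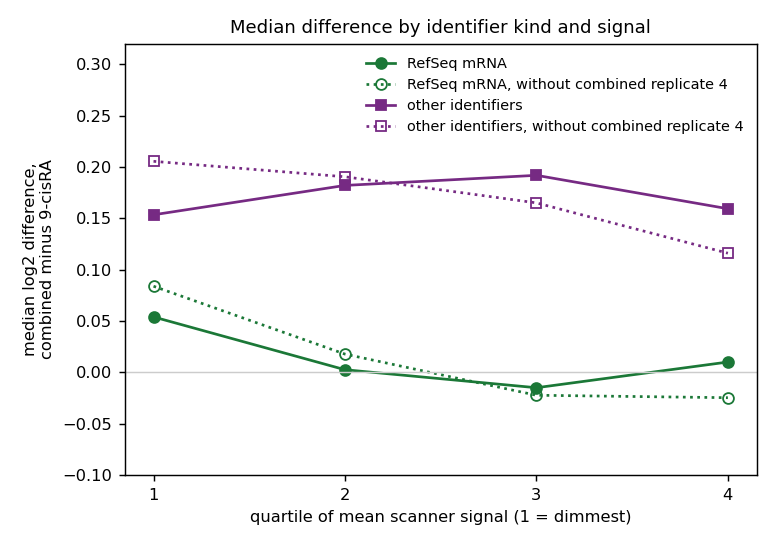
Median log2 difference, combined minus 9-cisRA, by quartile of mean scanner signal for RefSeq mRNAs and for all other identifiers, over 8 arrays (filled) and without combined replicate 4 (open). The other identifiers lie above the mRNAs in every quartile, at 0.15 to 0.19 against -0.015 to 0.054.

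The accessions with the smallest p-values were taken without regard to gene lists. The lowest p belonged to HSPB3 (NM_006308), a small heat shock protein, which read -0.0042, -0.80, -0.24 and -1.01 on combined replicates 1 to 4 and 1.46, 1.58, 1.55 and 1.45 on 9-cisRA replicates 1 to 4. The 9-cisRA arrays were close together and far above the combined arrays. The difference was -2.03 ± 0.21 (SE) (adjusted p 0.0770), and the probe was above background on 1 of 3 scanned combined arrays and 4 of 4 9-cisRA arrays. HSPB3 thus met the filter only through the 9-cisRA group, in which it was high. Its p and the size of its difference rest partly on combined values near background. Next among the lower ones was NR_027276, a non-coding RNA, at -1.54 ± 0.26 (SE) (adjusted p 0.180). None of its probes was above background on more than 2 of 3 scanned combined arrays, against 4 of 4 9-cisRA arrays, so it too met the filter only through 9-cisRA. Of the higher ones, NR_026682, also non-coding, read 0.097, 0.14, 0.25 and 0.62 on combined replicates 1 to 4 and -0.90, -1.05, -0.87 and -1.31 on 9-cisRA replicates 1 to 4, a difference of 1.31 ± 0.15 (SE) (adjusted p 0.101), with the groups far apart. BC034544 followed at 1.05 ± 0.14 (SE) (adjusted p 0.180), with its probe above background on 2 of 3 scanned combined and 4 of 4 9-cisRA arrays.

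Some further genes were named after their values were seen. KCNQ1 (NM_000218), a voltage-gated potassium channel, read -0.066, -1.20, 0.066 and -0.77 on combined replicates 1 to 4 and 1.92, 2.42, 2.07 and 0.59 on 9-cisRA replicates 1 to 4. The difference was -2.24 ± 0.41 (SE), the lowest of the genes named here, and its probe too was above background on 1 of 3 scanned combined arrays. KCNQ1 also met the filter only through the 9-cisRA group, where it was high. With normexp and quantile normalisation of the scanner signal, without combined replicate 3, the differences were -0.71 for KCNQ1 and -0.62 for HSPB3. IGF2BP2 (NM_006548), a binding protein of IGF2 mRNA, read 0.40, 0.35, 0.48 and 1.12 on combined replicates 1 to 4 and -0.48, -1.26, -1.21 and -0.76 on 9-cisRA replicates 1 to 4. Its groups were far apart at 1.51 ± 0.23 (SE), or 2.86-fold higher, but the brighter of its 2 probes gave 0.99 and normexp correction 0.27. CLU (NM_001831), clusterin, and TUBA1A (NM_006009), an alpha tubulin, differed by -0.56 ± 0.11 (SE) and -0.73 ± 0.13 (SE), and MST1R (NM_002447), a receptor tyrosine kinase, by 0.53 ± 0.095 (SE), all without overlap. After normexp MST1R differed by 0.21.

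Markers of cell types that a tumour can hold besides the cancer cells were followed on the same human probes, and their part in the results was not tested. Whether a signal of these probes came from human or from mouse RNA was not tested either. For the macrophage list, 6 of 12 markers were tested and the list mean ranged from -0.20 to 0.39 on combined and -0.13 to 0.34 on 9-cisRA arrays. For the endothelial list, 6 of 10 markers were tested and the list mean ranged from -0.12 to 0.34 on combined and -0.058 to 0.15 on 9-cisRA arrays. In 8 of 11 fibroblast and pericyte markers tested, the mean ranged from -0.032 to 0.91 on combined and 0.00037 to 1.04 on 9-cisRA arrays. Lymphocyte markers, with 6 of 8 tested, ranged from -0.12 to 0.63 and from -0.12 to 0.35, and erythroid markers, with 4 of 8 tested, from -0.46 to 0.81 and from -0.28 to 0.12. Only 2 of 6 adipocyte and 2 of 6 skeletal muscle markers were tested, with list means of -0.78 to 0.17 and -0.0049 to 0.34 on combined and -0.23 to 0.37 and -0.20 to 0.16 on 9-cisRA arrays. The ranges of both groups overlapped for the macrophage, endothelial, fibroblast, lymphocyte, erythroid, adipocyte and skeletal muscle lists. In bulk RNA, fewer cells of a type and less RNA per cell cannot be told apart. Of the 6 macrophage markers tested, 4 had a positive and 2 a negative difference. At an unadjusted p under 0.05, 1 of them was lower (16.7%, against 6.84% of all transcripts) and 0 were higher (against 10.8%). Of the 2 skeletal muscle markers, 1 was higher (50%, against 10.8%) and 0 were lower. The endothelial, fibroblast, lymphocyte, erythroid and adipocyte lists had 0 in either direction.

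The remaining lists had 0 to 3 members in either direction at an unadjusted p under 0.05, where all transcripts had 10.8% higher and 6.84% lower. None of the 13 p53 targets reached it. Of 12 heat shock proteins 1 was lower (8.33%), and of 12 members of the BCL2 family 1 was higher (8.33%) and 2 lower (16.7%). Of 23 interferon response genes 2 were higher (8.7%). HLA class I presentation had 1 higher (8.33%) and 2 lower (16.7%) of 12, and IGF2 and imprinted genes 1 higher (7.69%) and 2 lower (15.4%) of 13. Of 18 beta-catenin targets 1 was higher and 1 lower (5.56% each), and of 13 inhibin and activin genes also 1 and 1 (7.69% each). Immediate early genes had 1 higher (4.17%) and 3 lower (12.5%) of 24. With one array left out, each of these counts lay between 0 and 3. IGF2 (NM_000612), the growth factor overexpressed in most adrenocortical carcinomas, differed by 0.14 ± 0.16 (SE) (95% interval -0.21 to 0.49). MYC (NM_002467) differed by -0.38 ± 0.16 (SE) and CTNNB1 (NM_001904), beta-catenin, by 0.021 ± 0.13 (SE).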

How the data were processed

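RNA of 4 combined and 4 9-cisRA tumours was compared, as grouped by the labels. The values used are log2, from the series table as deposited. Its processing by the authors is unstated in the labels. When it was compared with the scanner files, whose deposited intensity columns are Agilent Feature Extraction output (version 11.0.1, per the submitters' processing notes), differences between arrays correlated at r = 1 over 19356 probes. The median absolute difference was at most 0.05, and each probe was centred on its median over 16 arrays.

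From the table, non-control probes (34127) were averaged per identifier. A transcript was tested when at least 1 probe was well above background on every scanned array of 1 group (3 combined, 4 9-cisRA). Limma 3.58.1 (lmFit and eBayes, R 4.3.3) was fitted to the 8 arrays alone, two-sided, with Benjamini-Hochberg adjustment over 19537 transcripts. A run on simulated data with independent noise checked only that the fit returned planted differences. It does not bear on the p-values of these arrays. Plots were drawn with matplotlib 3.10.9. The 2 accessions per direction with the smallest p were named by rule, since no symbol table was at hand. Of 826 symbols in the lists, 737 were given an accession from knowledge of RefSeq, with 678 such accessions on the array and 620 tested. A further 27 accessions, the examples given from each list and the single genes followed across alternatives were chosen after their values were seen. The members and lists were chosen with earlier results of these data known. No sequence is shown, because the tables at hand are of the mouse.

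The replicate number is the slide. Deviations of same-slide arrays correlated at 0.10, -0.097, 0.15 and -0.023, and the slide as a block is an alternative. The others were filters on dim probes, probe averaging, scaling, scanner signals of 7 arrays, added mitotane arrays, array weights, a trended robust prior and each array left out. Scanner signals were scaled to the 75th percentile, or given normexp correction with offset 50 and then quantile normalisation. Normexp was run on the median signal, as the files give no mean signal.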

Additional observations from a re-analysis of the deposited data

Results flagged for a closer look

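In 8 of 168 groups of 4 arrays, where about 8.4 would be flagged by chance (1 in 20), one array lay farther from its nearest neighbour than Dixon's 95% critical share of the group's range allows. In 4 of them it was 9-cisRA replicate 2, which was highest: GAPDH at 0.48, ATP5F1B at 0.51, the complex I mean at 0.31 and the proteasome mean at 0.33. The nearest other 9-cisRA arrays were at 0.12, 0.15, 0.018 and 0.085. Without that array the proteasome median was -0.28 and the complex I median -0.059, so both were nearer to 0. SOAT1 was lowest on 9-cisRA replicate 1, at -0.20 against 0.059 on the nearest array. IGF2BP2 was highest on combined replicate 4, at 1.12 against 0.48. The adrenocortical identity mean was lowest on combined replicate 2, at -0.29 against 0.025, and the HLA class I mean was lowest on combined replicate 4, at -0.15 against 0.025. No cause was tested.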

How the results depend on the processing

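No transcript passed the adjusted threshold in the unweighted fit. With array weights 419 passed (unadjusted p under 0.05 for 5231), after quantile normalisation 4, and with the mitotane arrays added 1. With single arrays left out, 0 to 1 passed, the 1 without combined replicate 1. These fits left 2454 (without 9-cisRA replicate 4) to 4002 (without 9-cisRA replicate 1) transcripts at an unadjusted p under 0.05. Transcripts without overlap numbered 2670 to 4173, against 2171 with all arrays; fewer arrays overlap less easily by construction. The counts were 3312 without combined replicate 2 and 4173 without 9-cisRA replicate 1. With the slide as a replicate block 0 passed and 3214 had an unadjusted p under 0.05, so the block changed no adjusted call. Of the lists with 5 or more members in one direction at that threshold, the block moved only DNA replication by over 1.5 times, from 11 lower to 5. Among alternative values for single genes, 1065 kept direction and side of the threshold, 26 newly passed it (23 of them with array weights) and 5 turned sign. STAR was 0.020 on scanner signal and 0.064 with array weights, and ranged from -0.082 to 0.10 with arrays left out, turning positive without combined replicate 2 (0.084) or 9-cisRA replicate 2 (0.10). SOAT1 was 0.013 after normexp. Among list medians, 25 alternative values moved by more than the spread between arrays and 555 did not. The causes were not tested. The 4 arrays a group and dim probes limit what can be seen, as for HSPB3, KCNQ1, MC2R and PLIN2. Gene names rest on accessions.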
